A study of Mus musculus with 30 samples.

Results

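Transcripts of 9 pancreatic digestive enzyme genes, *Cel*, *Cela2a*, *Cela3b*, *Cpb1*, *Cpa1*, *Clps*, *Pnlip*, *Ctrb1* and *Prss2*, were read in adipose tissue macrophages (ATMs), the F4/80+ cells sorted from visceral fat. The genes were taken by symbol from the 17059 genes of the ATM count table, where all 9 had an entry, and were chosen by their counts in those same libraries, where pancreatic enzymes had been noticed in an earlier reading. Their ATM levels are therefore a description, and calls of a fit over all genes are given for them as counts, with nothing read from them. All 9 were carried by the libraries of a single group. The 3 libraries of the Combo group, which received both drugs, held 2256 to 11460 counts of each gene, and in the 12 libraries of the other 4 groups the highest count was 224, for *Prss2*, and 25 for the remaining 8 genes.

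ATM RNA came from 5 groups with 3 libraries each. By the protocol given for every sample, recipients were irradiated with 700 and then 400 cGy and received bone marrow (BM), an equal mix of *Shp2*E76K/+;*LysM-Cre*+ cells of the CD45.2 type and Boy/J cells of the CD45.1 type. The LysM promoter drives Cre in myeloid cells, so the activating *Shp2* allele is switched on in that lineage. The WT group was taken as lean, and the other 4 were *Ob/Ob* recipients, which lack leptin. From 8 weeks after transplantation these obese mice received for 30 days the control solution (Vehicle), beinaglutide at 3 mg/kg, which activates the GLP-1 receptor (GLP-1R agonist), an antibody to IL-17A at 200 µg per mouse 3 times a week (anti-IL-17A), or both drugs (Combo). Mice of both sexes aged 12 to 14 weeks are labeled, all in a single batch. Going by the recipient age at transplantation in the study's methods, the treated mice were older than this when treatment ended. The age at collection is therefore uncertain. The labels of single samples name no donor. A legend of the study on its ATM comparison names WT cells for the WT side and can be read as *Ob/Ob* recipients for both. Another legend names WT and *Ob/Ob* mice. The donor of the WT group is thus uncertain and cannot be told apart from the recipient in Vehicle vs WT. The labels describe the 3 libraries as biological replicates from 3 mice.

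Pancreatic acinar cells make these enzymes in large amounts, store them in zymogen granules, the proteases as inactive precursors, and release them into the gut. There they act on dietary fat and protein. Their expression is largely restricted to the exocrine pancreas, and macrophages are not known for making them. In the mouse the pancreas is a loose organ spread through the mesentery, next to visceral fat.

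Acinar genes are known for a promoter element bound by the PTF1 complex, an E-box (CACCTG) followed at a short distance by a TC box (TTTCCC). As background, the 250 bases before the start of 4 of the 9 genes are shown. There is 1 for each kind of enzyme (a lipase, an elastase, a carboxypeptidase and a trypsin). The bases are from RefSeq on GRCm38.p6, 5′ to 3′ on the strand of the gene. That the 9 genes moved together was fixed by their choice, and shared control of them was not tested. Capitals mark the E-box, the TC box and the core of the TATA box (TATAAA) on either strand, and no marked stretches overlapped. The windows lie at chr2:28563404-28563653 (minus strand), chr4:137430521-137430770 (minus strand), chr6:30638968-30639217 (plus strand), chr6:41521526-41521775 (plus strand), in the order shown.
Cel: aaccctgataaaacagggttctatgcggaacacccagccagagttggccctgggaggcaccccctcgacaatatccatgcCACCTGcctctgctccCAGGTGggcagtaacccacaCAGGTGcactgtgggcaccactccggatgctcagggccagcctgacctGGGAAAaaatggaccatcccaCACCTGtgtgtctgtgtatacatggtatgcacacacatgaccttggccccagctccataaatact
Cela3b: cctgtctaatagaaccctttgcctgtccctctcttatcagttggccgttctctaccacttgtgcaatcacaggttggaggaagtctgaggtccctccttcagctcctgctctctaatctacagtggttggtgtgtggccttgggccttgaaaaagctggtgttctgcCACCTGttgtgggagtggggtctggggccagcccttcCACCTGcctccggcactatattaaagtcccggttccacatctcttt
Cpa1: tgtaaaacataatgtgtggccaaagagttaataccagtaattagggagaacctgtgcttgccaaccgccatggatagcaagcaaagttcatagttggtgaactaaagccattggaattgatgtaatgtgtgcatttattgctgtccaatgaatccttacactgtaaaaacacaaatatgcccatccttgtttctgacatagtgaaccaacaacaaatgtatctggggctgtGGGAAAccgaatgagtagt
Prss2: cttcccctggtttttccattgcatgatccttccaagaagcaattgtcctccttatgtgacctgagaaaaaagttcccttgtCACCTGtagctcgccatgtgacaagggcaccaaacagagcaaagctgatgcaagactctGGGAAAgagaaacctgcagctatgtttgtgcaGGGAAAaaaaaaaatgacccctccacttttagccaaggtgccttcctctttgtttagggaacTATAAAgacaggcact

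RefSeq windows of 300 bases, 250 before to 50 after the start, were matched for 8 of the 9 genes (*Clps* had none). CACCTG was present in 5 of these 8 (*Cel*, *Cela2a*, *Cela3b*, *Cpb1* and *Prss2*) and in 20.2% of the 32851 promoters of the same length. TTTCCC was present in 5 of 8 (*Cel*, *Cela2a*, *Cpa1*, *Ctrb1* and *Prss2*) against 25.2% of all promoters, and both were present in 3 of 8 (*Cel*, *Cela2a* and *Prss2*) against 4.86%. TATAAA was found in 3 of 8 (*Cpb1*, *Pnlip* and *Prss2*) against 13.6%. The *Cel* window above held 4 E-boxes and 1 TC box, that of *Prss2* 1 E-box, 2 TC boxes and 1 TATAAA, that of *Cela3b* 2 E-boxes and that of *Cpa1* 1 TC box. The count of both motifs took them anywhere in the 300 bases, on either strand, in any order and at any distance. It is therefore no count of the closely spaced PTF1 element. All of these are matches of letters and not measured binding.

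The lipid-digesting enzymes comprise carboxyl ester lipase (*Cel*), which cleaves cholesteryl and other esters, pancreatic triglyceride lipase (*Pnlip*) and colipase (*Clps*), the cofactor that anchors *Pnlip* to fat droplets. *Cel* (chr2:28555795-28563403, GRCm38) had 7375, 7062 and 6158 counts in Combo libraries 1 to 3, against 3, 0 and 0 in WT, 0, 0 and 1 after the GLP-1R agonist, and 0 in all Vehicle and anti-IL-17A libraries. The Combo libraries were all high, and no other library exceeded 3 counts, no more than what a count of 0 allows at the 95% level. Scaled to library size by TMM, the normalized count of *Cel* in Combo was 6196 ± 309 (SD, n = 3), at least 1441-fold higher than in Vehicle when the 3 Vehicle libraries are set at a floor of 3 counts each.

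*Pnlip* (chr19:58652498-58681788) had 4274, 3979 and 3982 counts in Combo and 0 in each of the 12 other libraries. It and *Cela3b* were the members without a single count outside Combo. Its normalized count in Combo was 3687 ± 91.6 (SD, n = 3), at least 857-fold higher than in Vehicle. *Clps* (chr17:28558149-28560766) had 4453, 4174 and 3959 counts in Combo, 4, 3 and 5 after the GLP-1R agonist, 1 in WT library 3 and 0 in the other 8 libraries. The GLP-1R agonist libraries did not overlap with those of Vehicle for this gene, but at 3 to 5 counts. The normalized count of *Clps* in Combo was 3790 ± 49.9 (SD, n = 3), at least 881-fold higher than in Vehicle.

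**Figure D1:**
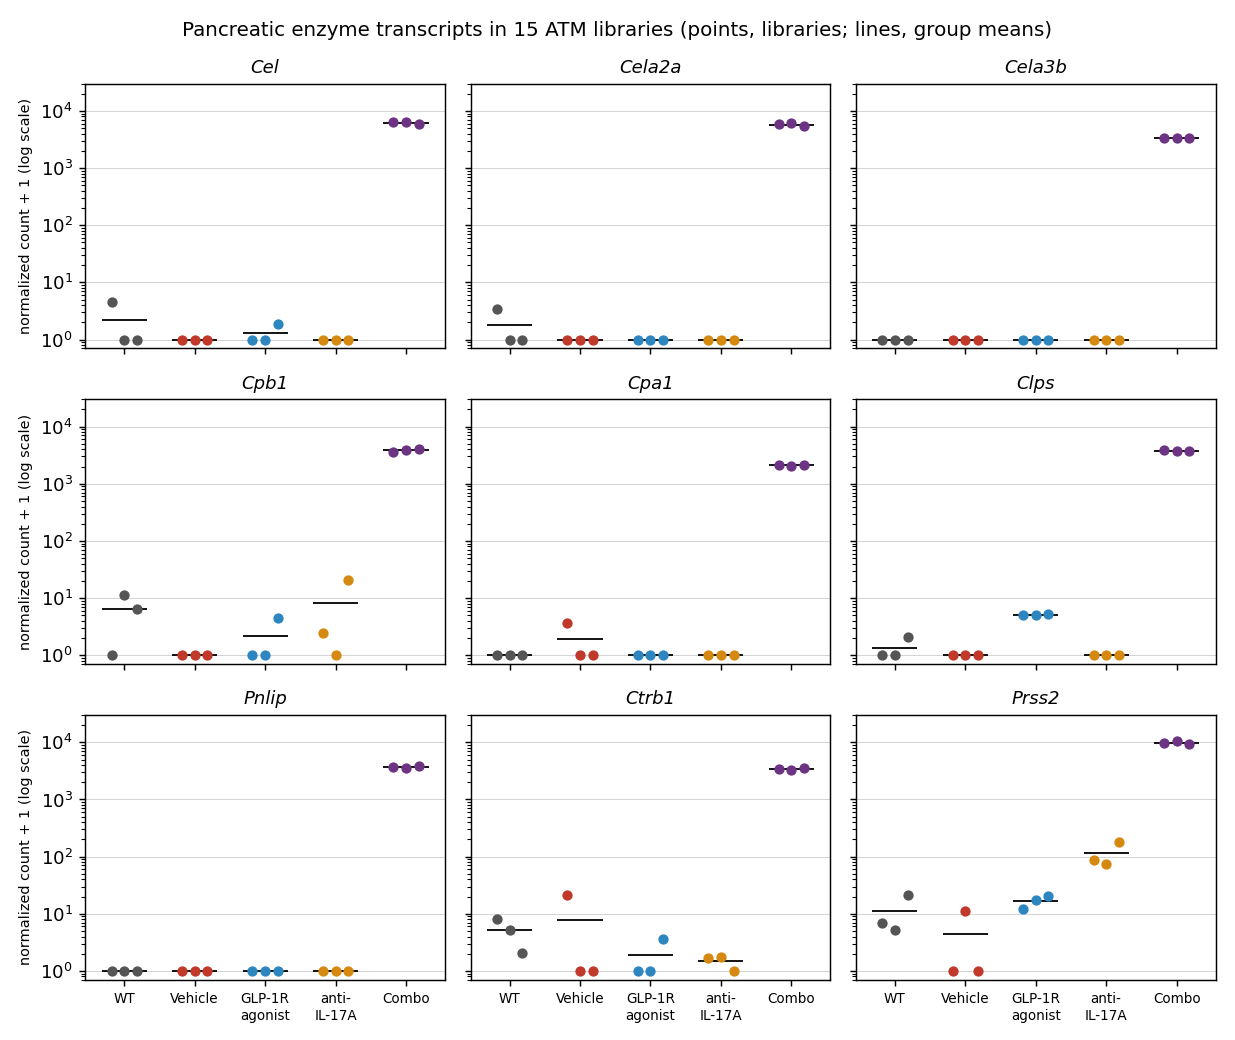
Normalized count plus 1, on a log scale, of each of the 9 pancreatic enzyme genes in each of the 15 ATM libraries (points), by group, with the mean of the group as a line. The Combo libraries sit above 2037 for every gene, and the others lie at or near 0, except for *Prss2* in the anti-IL-17A group.

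The elastases *Cela2a* and *Cela3b* are serine proteases of the pancreatic juice. *Cela2a* (chr4:141814962-141826160) had 6803, 6690 and 5672 counts in Combo, 2 in WT library 1 and 0 elsewhere. *Cela3b* (chr4:137420999-137430540) had 3950, 3769 and 3587 counts in Combo and 0 in all 12 other libraries. Combo stood apart from the 4 other groups for both genes, and those 4 overlapped. Normalized counts in Combo were 5765 ± 345 for *Cela2a*, at least 1341-fold higher than in Vehicle, and 3406 ± 5.97 for *Cela3b*, at least 792-fold higher (SD, n = 3). Of the *Cela2a* exon length 17.7% overlaps exons of *Casp9* or *Ctrc*, and 13.0% of its 100-base windows are also found in transcripts of *Ctrc*. Reads on several genes were counted for each. *Ctrc* had only 18, 33 and 16 counts in Combo, so reads shared with it were few beside the *Cela2a* counts. *Cela3b* shares 6.64% of such windows with *Cela3a*, and the other 7 genes share none with any transcript of another gene.

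The carboxypeptidases trim amino acids from the ends of peptides, *Cpa1* those with aromatic or aliphatic side chains and *Cpb1* the basic ones. *Cpa1* (chr6:30639218-30645363) had 2496, 2256 and 2281 counts in Combo, 2 in Vehicle library 1 and 0 elsewhere. The ratio of summed counts of Combo to Vehicle, scaled to library size, was 2222, with an exact 95% interval of 615 to 18355 for counting error. *Cpb1* (chr3:20248264-20275733) had 4243, 4320 and 4234 counts in Combo, 0 in all Vehicle libraries, 0, 10 and 5 in WT, 0, 0 and 4 after the GLP-1R agonist and 2, 0 and 25 after anti-IL-17A. The Combo libraries were again far above all others, and among the others the 25 counts came from anti-IL-17A library 3 alone. Normalized counts in Combo were 2119 ± 70.8 for *Cpa1* and 3860 ± 178 for *Cpb1* (SD, n = 3), the latter at least 898-fold higher than in Vehicle.

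Chymotrypsinogen B (*Ctrb1*) and a trypsinogen (*Prss2*) are precursors of the main protein-cleaving enzymes of the gut. *Ctrb1* (chr8:111686519-111691010) had 3998, 3614 and 3712 counts in Combo, 6, 4 and 1 in WT, 15, 0 and 0 in Vehicle, 0, 0 and 3 after the GLP-1R agonist and 1, 1 and 0 after anti-IL-17A. All 15 Vehicle counts stood in library 1. The normalized count in Combo was 3412 ± 133 (SD, n = 3), and the ratio of summed counts to Vehicle was 477, with a counting interval of 289 to 853.

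*Prss2* (chr6:41521787-41525079) was the most counted of the genes and differed from the rest outside Combo. It had 11261, 11460 and 10048 counts in Combo and 125, 94 and 224 after anti-IL-17A, against 11, 12 and 22 after the GLP-1R agonist, 5, 4 and 19 in WT and 0, 7 and 0 in Vehicle. The anti-IL-17A libraries lay above all WT, Vehicle and GLP-1R agonist libraries and below all Combo libraries. The normalized counts were 9868 ± 427 in Combo, 113 ± 57.8 after anti-IL-17A, 15.5 ± 4.18 after the GLP-1R agonist, 10.3 ± 9.06 in WT and 3.42 ± 5.93 in Vehicle (SD, n = 3). The libraries of the GLP-1R agonist and WT overlapped, as did those of WT and Vehicle. The ratio of summed counts of Combo was 2959 to Vehicle and 88.8 to anti-IL-17A, with counting intervals of 1436 to 7359 and 80.9 to 97.8. These intervals leave out the spread between libraries. After anti-IL-17A that spread was larger, with a coefficient of variation of 51.2% where counting alone gives 8.23%.

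Outside Combo, 78 of the 108 values (9 genes in 12 libraries) were 0 and 89 were 3 or lower. Without *Prss2*, 76 of 96 were 0. Summed over the 9 genes, the TMM-scaled CPM was 1247 to 1288 in the Combo libraries and at most 5.99 in any other. Vehicle library 3 had no count of any of the 9 genes. The genes took 0.137% to 0.141% of all counts in the Combo libraries. Every Combo library exceeded all 12 others for 9 of 9 genes, as did 4.31% of all genes tested. Since these values chose the genes, nothing is read from that count.

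In a joint edgeR fit of the 15 libraries, with a gene called at a false discovery rate below 0.05 and an absolute log2 fold change above 1, all 9 genes were called higher in Combo vs Vehicle, as were 14.1% of all genes. The choice of the genes by these counts fixed that call, and it is no evidence of a difference. None of the 9 was called in Vehicle vs WT, where 35.4% of all genes were called in either direction. In GLP-1R agonist vs Vehicle 1 gene was called higher, *Clps*, at 3 to 5 counts, beside 20.8% of all genes. In anti-IL-17A vs Vehicle *Prss2* was called higher, beside 22.4% of all genes, and *Ctrb1* lower, beside 13.1%. The call of *Ctrb1* rested on Vehicle library 1, and its fitted log2 fold change turned from -3.52 to 2.34 without that library. The treated groups share the Vehicle libraries, so these calls are not independent of each other.

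The levels of the 9 genes were compared with each other per kb of exon, within Combo. The normalized count per kb was 12108 ± 525 for *Prss2*, 6203 ± 81.7 for *Clps*, 3886 ± 152 for *Ctrb1*, 3346 ± 200.3 for *Cela2a*, 2945 ± 147 for *Cel*, 2045 ± 3.59 for *Cela3b*, 1680 ± 41.7 for *Pnlip*, 1211 ± 40.5 for *Cpa1* and 1175 ± 54.2 for *Cpb1* (SD, n = 3). Of neighbors in this order only *Cpa1* and *Cpb1* had overlapping libraries, and the highest was 10.3 times the lowest. Among the lipid-digesting genes the cofactor *Clps* stood above both lipases per kb.

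**Figure D2:**
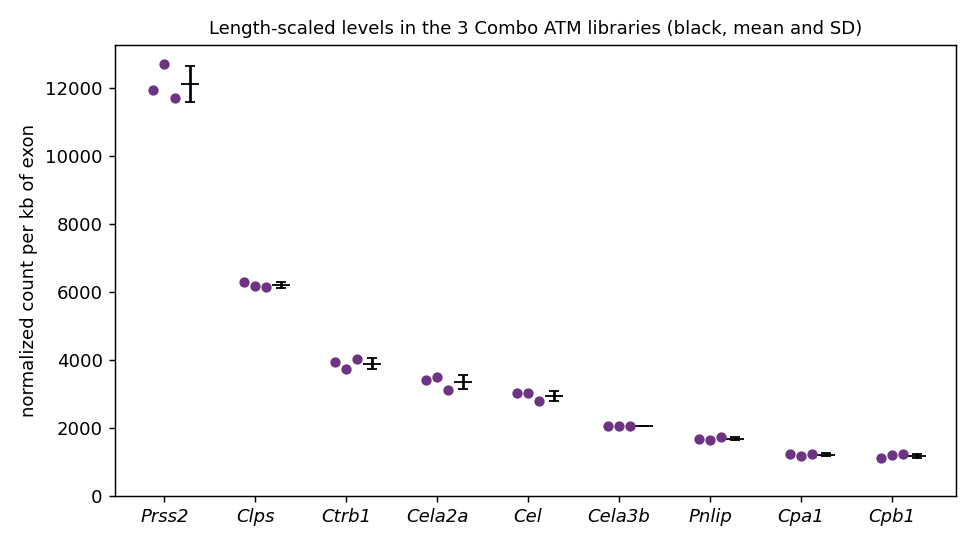
Normalized count per kb of exon of the 9 genes in the 3 Combo ATM libraries (points), with mean and SD in black, in falling order. *Prss2* stands highest at 12108 and *Cpb1* lowest at 1175, and the *Cpa1* and *Cpb1* points overlap.

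The 3 Combo libraries held the 9 transcripts at similar levels and in nearly fixed proportions. The coefficient of variation of the normalized count of a gene over the 3 libraries was 0.175% (*Cela3b*) to 5.99% (*Cela2a*). Counting error alone would give 0.957% to 2.07%, depending on the gene. *Cela3b* (0.175% against 1.63%) and *Clps* (1.32% against 1.54%) varied less than their own counting error. *Prss2* made up 23.0% to 24.2% of the counts on the 9 genes, *Cel* 14.1% to 15.1%, *Cela2a* 13.0% to 14.1%, *Cpb1* 8.69% to 9.70% and *Cpa1* 4.77% to 5.23%. The remaining 4 genes each took 7.64% to 9.13%.

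In the anti-IL-17A group the make-up was different. *Prss2* took 443 of the 472 counts of its 3 libraries, 93.9% (95% Wilson interval 91.3% to 95.7%), against 23.4% (23.2% to 23.7%) in Combo. *Cpb1* took a further 27 and *Ctrb1* 2, and 6 genes (*Cel*, *Cela2a*, *Cela3b*, *Cpa1*, *Clps* and *Pnlip*) had 0 counts there. *Cel*, 14.7% of the counts in Combo, had 0 of 472, which by the Wilson interval allows a share of up to 0.807%. These intervals cover counting error only, since reads are not independent molecules. WT, Vehicle and GLP-1R agonist libraries summed to 60, 24 and 65 counts on the 9 genes, and single libraries decided the shares of the first 2. In Vehicle *Prss2* took 0 of 17 counts in library 1 and 7 of 7 in library 2, and library 3 had none. In WT it took 5 of 16, 4 of 18 and 19 of 26, and after the GLP-1R agonist 11 of 15, 12 of 15 and 22 of 35. In anti-IL-17A libraries it took 125 of 128, 94 of 95 and 224 of 249.

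**Figure D3:**
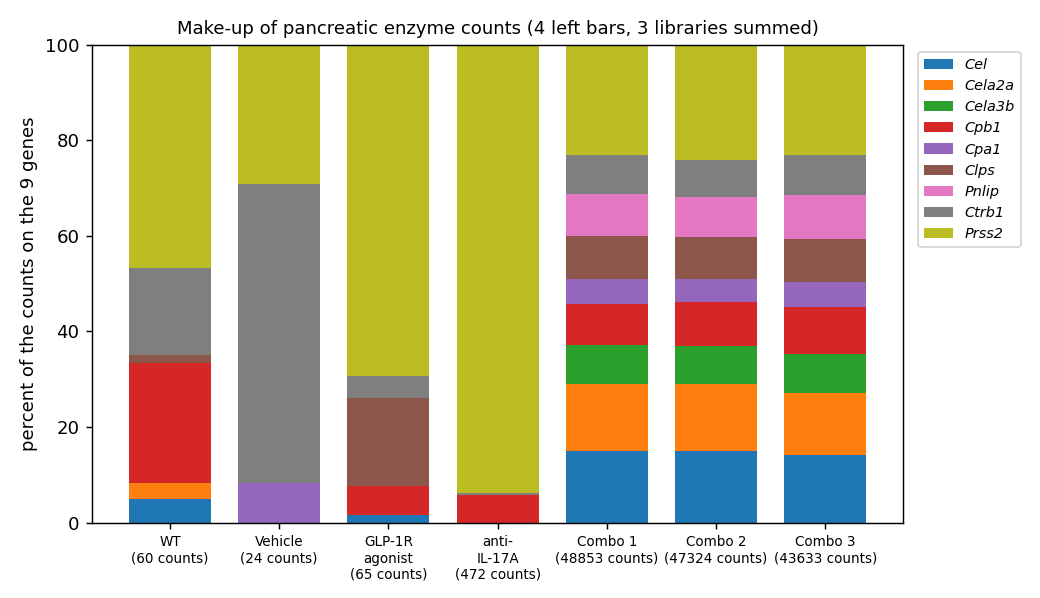
Share of the counts on the 9 genes taken by each gene, in percent, in the summed libraries of WT, Vehicle, GLP-1R agonist and anti-IL-17A (the 4 left bars) and in each Combo library. The Combo bars are nearly alike, with *Prss2* at 23.0% to 24.2%, and the anti-IL-17A bar is 93.9% *Prss2*, while the WT, Vehicle and GLP-1R agonist bars rest on 60, 24 and 65 counts, in Vehicle mostly of 1 library.

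Other products of acinar cells were read from a list of 39 genes, of which 28 were matched in the ATM table. In Combo all 28 had counts, and 23 of 28 were called higher and 2 lower (*Reg3g* and *Klk1*) than in Vehicle, beside 14.1% and 12.2% of all genes. Their median log2 difference, with 16 genes at 0 in Vehicle set at the floor, was 5.82, against 0 over all genes tested and 9.81 over the 9 enzymes. The smallest summed count of a gene in the ATM table was 54. Genes at 0 outside Combo, such as *Amy2b*, *Ctrc*, *Reg2*, *Reg3b* and *Reg3d*, were therefore matched only through their Combo counts. This fixed part of the 23 calls and of the median in advance, and nothing is read from either. The trypsinogens *Try4* and *Try5* had 2501 to 3001 and 2879 to 3103 counts in Combo libraries and at most 10 and 14 in any other, and the granule protein *Sycn* had 1950 to 2302 and at most 76. The secreted lectins *Reg2* and *Reg3b* had 1636 to 2089 and 1469 to 1605 counts in Combo and 0 in the other 12 libraries. The pancreatic amylase *Amy2b* had 176 to 230 and 0. Transcripts near-identical to each other, such as those of trypsinogens and amylases, may have lost or exchanged reads.

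Several genes of that list were also high outside Combo. The lipase-related *Pnliprp1* had 1900 to 1938 counts in WT libraries beside 2822 to 3535 in Combo, and the ribonuclease *Rnase1* 1747 to 2078 in WT beside 1992 to 2414. The granule membrane protein *Gp2* had 559 to 902 counts in Vehicle, and *Reg3g*, an antibacterial lectin also made by gut epithelium, had 21487 to 25926 in Vehicle and 5141 to 5709 in Combo. In the anti-IL-17A group *Klk1* (5289 to 6264), a kallikrein, and *Cuzd1* (4393 to 4565), a zymogen granule protein, exceeded their Combo counts of 303 to 394 and 121 to 225. *Klk1* and *Cuzd1* are also expressed outside the pancreas, in other glands or the reproductive tract. With the 28 genes summed, Vehicle (33467 to 36618) and Combo (32569 to 33143) were close in normalized counts, *Reg3g* making up most of the Vehicle sum. Across the other comparisons 8 of 28 were called in Vehicle vs WT (4 higher, 4 lower), 8 in GLP-1R agonist vs Vehicle (5 higher, 3 lower) and 9 in anti-IL-17A vs Vehicle (4 higher, 5 lower), beside 35.4%, 31.8% and 35.5% of all genes.

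Endocrine transcripts stood beside the enzymes at far lower counts. The insulin genes *Ins1* and *Ins2* had 72, 47 and 45 and 136, 171 and 176 counts in Combo libraries, and in the other 12 libraries only anti-IL-17A library 1 had any, 9 of *Ins2*. Of 17 islet genes 9 were matched, and 4 were called higher (*Ins1*, *Ins2*, glucagon *Gcg* and amylin *Iapp*) and 2 lower (*Chga* and *Pcsk2*) in Combo vs Vehicle, beside 14.1% and 12.2% of all genes. Over the 8 islet genes above the floor the median log2 difference with bounds was 2.47. *Ins1* and *Ins2* were likewise matched only through their Combo counts, which fixed their calls and part of this median in advance. *Slc2a2* and *Pcsk2* were at 0 in Combo. *Gcg* and *Iapp* were not particular to Combo, with up to 29 and 65 counts in WT libraries.

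Of 11 regulators and receptors of acinar cells 4 were matched in the ATM table. Those not matched, and so not analysed, included *Ptf1a* and *Rbpjl* of the PTF1 complex and the receptor gene *Cckar*. *Bhlha15*, a transcription factor of secretory cells that plasma cells also express, had 170 to 262 counts in Combo, 0 to 37 in Vehicle and 202 to 372 in WT, and was the only one called higher in Combo vs Vehicle. *Nr5a2* (0 to 19 in Combo), *Gata4* (11 to 30) and *Gal* (16 to 30) were not called. Of 10 genes of duct cells and other epithelia, all matched, 8 were called lower and 0 higher in Combo vs Vehicle, beside 12.2% and 14.1% of all genes. This was not particular to Combo. In anti-IL-17A vs Vehicle 8 were lower and 0 higher, beside 13.1% and 22.4% of all genes. In GLP-1R agonist vs Vehicle 5 were lower and 0 higher, beside 10.9% and 20.8%. *Krt19* had 1743 to 1912 counts in Combo, 3289 to 4389 in Vehicle and 9272 to 10610 in WT. It had 1057 to 1681 after the GLP-1R agonist and 517 to 808 after anti-IL-17A.

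**Figure D4:**
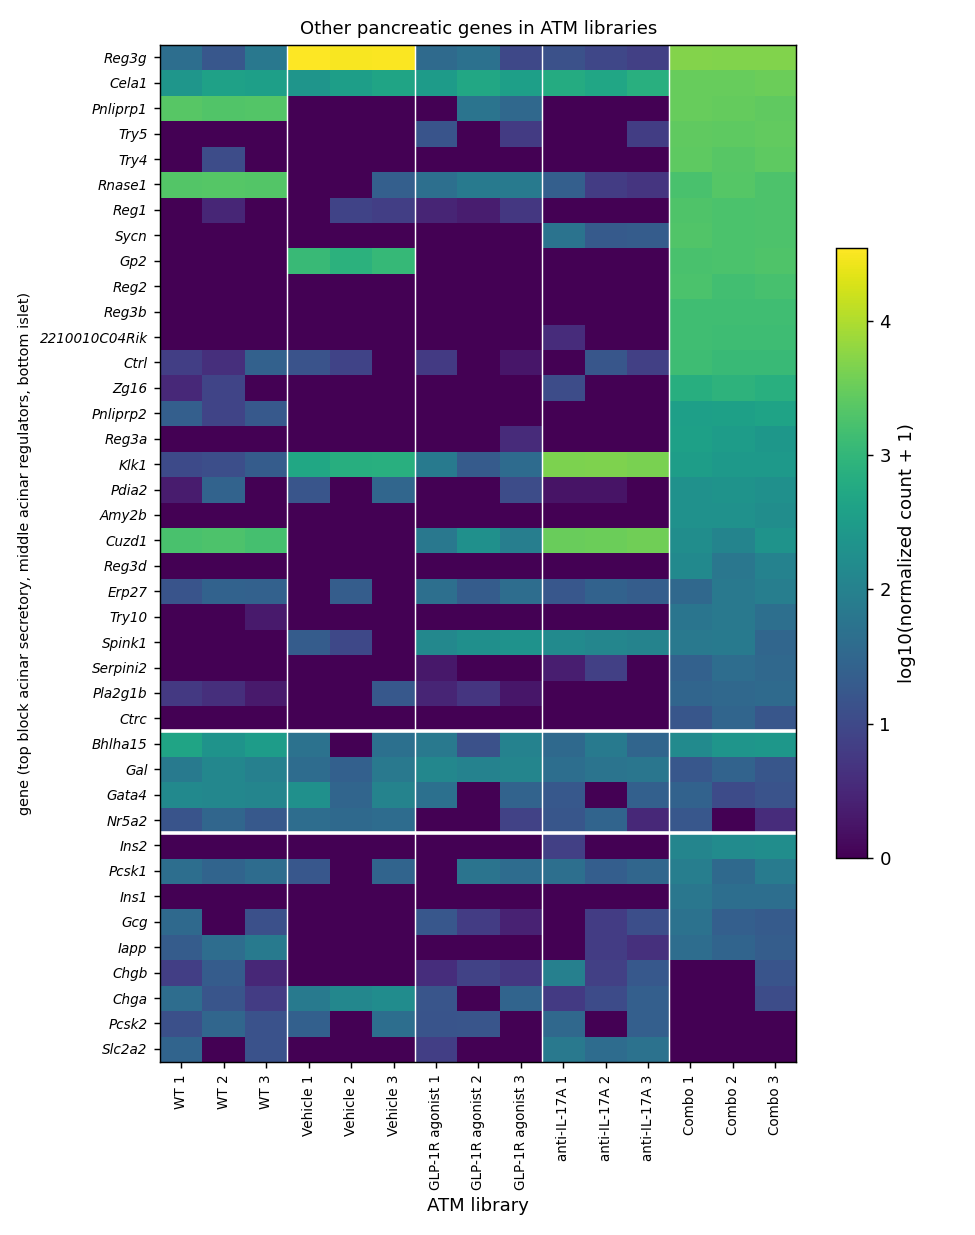
Heat map of log10(normalized count + 1) of 27 other acinar genes (top), 4 acinar regulators (middle) and 9 islet genes (bottom) in the 15 ATM libraries, ordered within each block by the Combo mean. Most acinar genes are bright in the Combo columns and dark elsewhere, whereas *Reg3g* is brightest in Vehicle, *Pnliprp1* and *Rnase1* are also bright in WT, and *Klk1* and *Cuzd1* are brightest in anti-IL-17A.

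The genes most like the 9 enzymes were sought over all other genes by the Pearson correlation, across the 15 libraries, of log2(normalized count + 1) with the mean of the 9. The 10 highest were *Reg3b*, *Reg2*, *Amy2b*, *Ins1*, *Reg3d*, *2210010C04Rik*, *Ctrc*, *Try10*, *Reg3a* and *Try4*, with r of 0.98 (*Try4*) to 1.00 (*Reg3b*). Of these 9 were in the acinar list and 1 in the islet list. *Ctrc* had 16 to 33 counts in Combo and shares 21.4% of its exon length with *Casp9* or *Cela2a*, so its counts may include *Cela2a* reads. The points are the same 15 libraries for every gene, and the correlation reflects the step between Combo and the rest. By rank the 10 highest genes were others, with 0 shared. Each enzyme against the mean of the other 8 gave r of 0.88 (*Prss2*) to 1.00 (*Cela3b* and *Pnlip*).

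Of all 17059 genes, 9 had at least 100 counts in every Combo library and at most 3 in each of the other 12. They were 5 of the enzymes (*Cel*, *Cela2a*, *Cela3b*, *Cpa1* and *Pnlip*) and 4 of the acinar list (*Amy2b*, *Reg2*, *Reg3a* and *Reg3b*). By the same limits, set after the values were seen, WT had 2 genes (*Ren2* and *Wee2*) and Vehicle, the GLP-1R agonist and anti-IL-17A had 0.

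The ATM libraries held 24876074 to 45300263 counts (median 31854058) with a biological coefficient of variation of 32.5%. Over all genes no 2 libraries of a group agreed within sampling noise (chi-square per degree of freedom 12.1 to 28.3). Some levels were much closer, such as the summed macrophage markers in Combo, at 448989 to 449648. Whether the SDs given here hold the full spread between mice was not tested. All 15 macrophage markers had counts in every group. *Adgre1*, which encodes F4/80, had 13827 to 15551 counts in Combo and 750 to 1184 in Vehicle, and *Csf1r* had 24033 to 25557 and 851 to 1242, so the gene of the sorted marker was lowest in Vehicle. These had the largest log2 differences of the 15 markers, of which 7 were called higher and 1 lower (*Fcgr1*, 1251 to 1602 counts against 3334 to 4363) in Combo vs Vehicle. The list summed to 448989 to 449648 normalized counts in Combo and 143101 to 151911 in Vehicle. Markers of other cells moved between groups as well, and the plot of marker lists shows their sums. Fibroblast genes (6 of 6 matched) summed to 433552 to 444849 normalized counts in Combo and 192682 to 206288 in Vehicle. The WT (494584 to 524389), GLP-1R agonist (786168 to 800549) and anti-IL-17A (500772 to 509850) sums were all higher than in Combo. T cell genes (5 of 6) summed to 19982 to 20584 in Combo, the highest of the 5 groups, against 2243 to 2615 in Vehicle and 11907 to 12694 after anti-IL-17A, and B and plasma cell genes (6 of 6) to 35211 to 38211 against 10380 to 11926 in Vehicle. Epididymal genes (7 of 12) summed to 107068 to 112196 in WT and to at most 35.4 in Combo and 70.3 in Vehicle, and in Combo *Crisp4*, *Lcn5*, *Spint4*, *Adam7* and *Defb42* were at 0. Mesothelial genes (6 of 6) were read because the organs of the abdomen are lined by such cells. They summed to 46773 to 49798 in WT, 7209 to 8033 in Combo and 1660 to 1961 in Vehicle. After the GLP-1R agonist their sum, at 6977 to 7383, overlapped that of Combo, and after anti-IL-17A it was 1517 to 2138. The sum of liver genes (6 of 10) was lowest in Combo, at 85.3 to 102, with *Apoa1* and *Fgb* at 0, but *Alb*, *Ahsg* and *Cyp2e1* each had a lower mean in another group. Adipocyte genes (10 of 10) summed to 118607 to 121262 in Combo and 149426 to 159547 in Vehicle, where *Fabp4* alone, also a macrophage gene, had a mean of 133526 against 36401 in Combo, and 2 genes of the list were called higher and 2 lower. Endothelial genes (5 of 5) summed to 14277 to 16951 in Combo and 46322 to 51371 in Vehicle. The WT (18462 to 18607), GLP-1R agonist (17234 to 18258) and anti-IL-17A (16490 to 17537) sums were well below Vehicle. Stomach and salivary gland genes (3 of 8) summed to 200.1 to 274 in Combo and 172 to 195 in Vehicle. Their sums were 620 to 859 in WT, 550 to 665 after the GLP-1R agonist and 176 to 397 after anti-IL-17A. The 1 matched of 9 intestinal genes had 18.1 to 36.0 in Combo and 0 to 29.4 in Vehicle. It had 30.5 to 97.7 in WT, 1.35 to 53.8 after the GLP-1R agonist and 56.7 to 88.0 after anti-IL-17A. In bulk RNA more cells of a type and more RNA per cell cannot be told apart. The part of other cells, or of RNA from neighboring tissue, in the enzyme counts of the Combo ATMs was not tested.

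**Figure D5:**
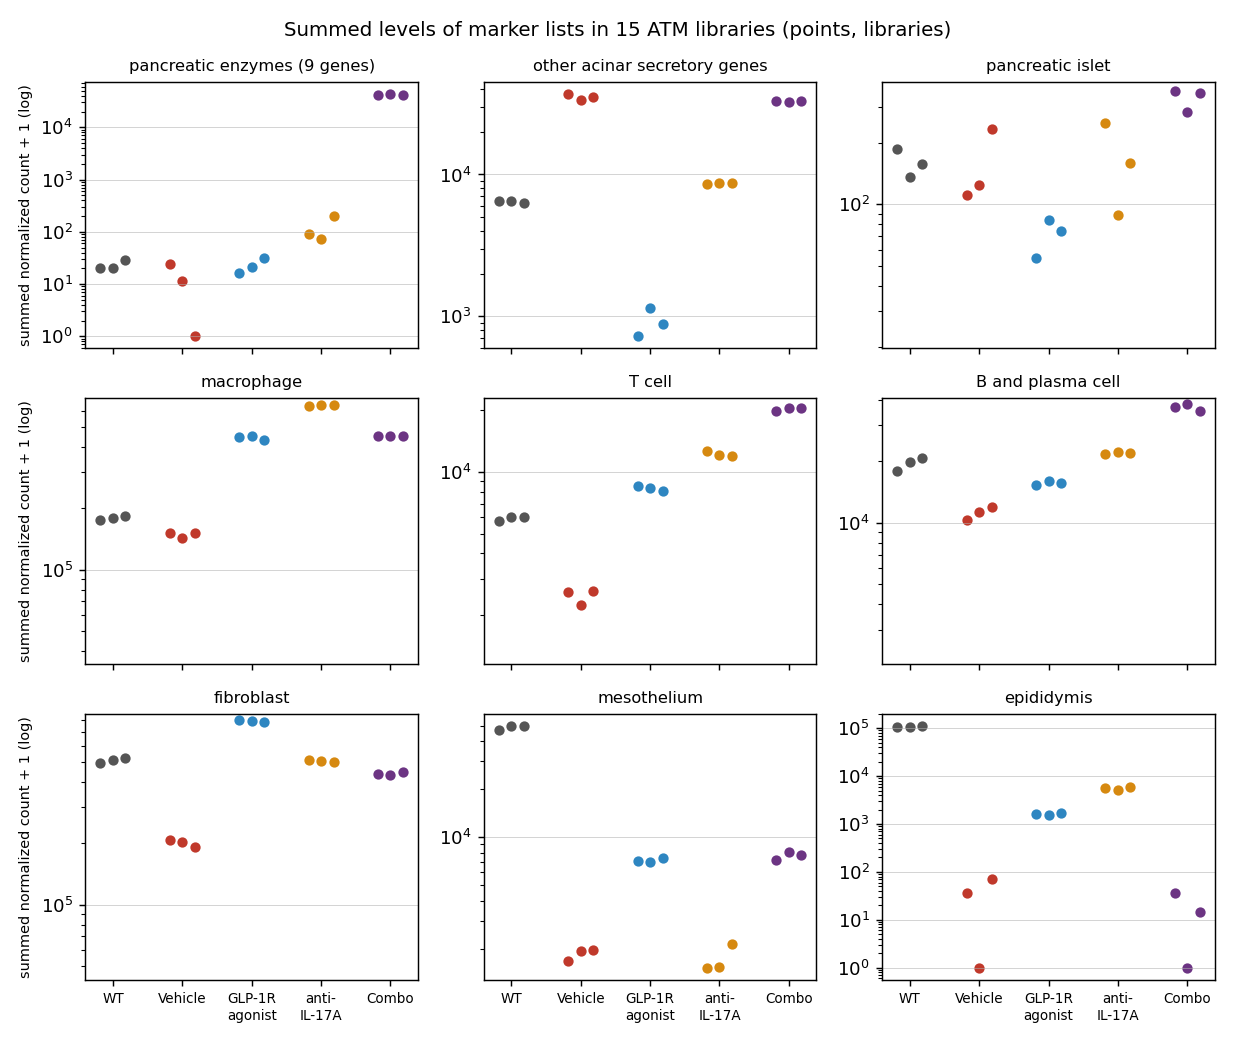
Summed normalized count plus 1, on log axes that differ between panels, of the 9 pancreatic enzymes and of 8 lists of marker genes in each of the 15 ATM libraries (points). The enzymes are high in Combo alone, epididymal genes are highest in WT, and T cell and B and plasma cell genes are highest in Combo, while macrophage genes are highest after anti-IL-17A.

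BM of the same 5 groups was read as a second tissue whose values had no part in choosing the genes. Of the 9 enzymes 1, *Prss2*, was matched among the 13353 genes of the BM table, where the smallest summed count of a gene was 55. The other 8 were not matched and were not analysed there. *Prss2* had 12, 13 and 14 counts in WT, 28, 44 and 16 in Vehicle, 25, 18 and 14 after the GLP-1R agonist, 22, 24 and 26 after anti-IL-17A and 10, 23 and 24 in Combo. The Vehicle libraries were the highest as a group, Combo did not stand out, and all 15 values were between 10 and 44.

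In an edgeR quasi-likelihood fit of the 15 BM libraries, *Prss2* was higher in Vehicle than in WT by a log2 fold change of 1.38 (SE 0.38, Benjamini-Hochberg adjusted p = 0.00143, higher in 3 of 3 libraries), beside 19.5% of all BM genes called in either direction. Combo vs Vehicle gave -0.73 (SE 0.36, adjusted p = 0.0642) and anti-IL-17A vs Vehicle -0.55 (SE 0.35, adjusted p = 0.149), neither past the threshold. GLP-1R agonist vs Vehicle gave -0.88 (SE 0.36, adjusted p = 0.0264), inside the fold limit and not past the threshold without Vehicle library 2 (-0.51, adjusted p = 0.261) or without GLP-1R agonist library 2 (adjusted p = 0.0821) or 3 (adjusted p = 0.0903). Anti-IL-17A vs Vehicle fell below 0.05 without Vehicle library 3 (-0.82, adjusted p = 0.0413), inside the fold limit. Combo vs Vehicle fell below 0.05 without Vehicle library 3 (-1.04, adjusted p = 0.0126), beyond the fold limit. It also did so without Combo library 3 (-0.93, adjusted p = 0.0436), inside that limit.

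Of the 28 acinar genes seen in ATMs 7 had an entry in BM. *Cela1*, an elastase gene that many tissues express, had 588 to 1648 counts there and 172 to 3558 in ATMs. *Pdia2* (91 to 709), *Klk1* (17 to 120), *Erp27* (20 to 48), *Ctrl* (2 to 31) and *Zg16* (8 to 22) were among the others. In Combo *Ctrl* had 7, 2 and 4 counts in BM libraries against 1541, 1305 and 1275 in ATM libraries. The tissues were normalized separately, so counts are given side by side with no test between them.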

How the data were processed

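RNA of whole BM and of sorted F4/80+ ATMs from 5 groups, 3 mice each by the labels, was sequenced. Following the study's methods, STAR 2.7.2a was run against mm10, and unique reads were assigned to GENCODE genes by featureCounts 2.0.1. Counting ignored strand, needed a mapping quality of 10 and let a read count for every gene it overlapped. The values the authors deposited are raw counts per gene in 1 table per tissue. A low-count filter is not stated, and the smallest summed count of a gene was 54 in ATMs and 55 in BM. Unmatched genes were not analysed here.

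Groups were taken from the sample labels. Counts were fitted in R 4.3.3 with edgeR 4.0.16 (TMM, filterByExpr, which removed 0 genes, robust quasi-likelihood, all 15 libraries of a tissue, 2-sided, Benjamini-Hochberg adjusted over all genes). Normalized counts are counts over effective library size times its mean. Exon lengths and coordinates come from GENCODE M21 (GRCm38), an earlier release of the annotation on the same build. The scripts used Python 3.11.15 with pandas 2.3.3, scipy 1.17.1 and matplotlib 3.10.9. P-values rest on the spread between 3 libraries a group. In simulated counts for Combo vs Vehicle (16917 genes, 200 changed by 4-fold), edgeR recovered 167 and called 0 others, and DESeq2 1.42.0 recovered 180 and called 21 others.

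The 9 genes and the marker lists were chosen with earlier results of these data known. Named are all 9 genes, the matched acinar, islet, regulator and duct genes with the highest means, the 10 genes most like them, and marker genes beside a result. The exceptions among them, such as *Klk1*, *Reg3g* and *Gp2*, and the genes carried by 1 group, were named after their values were seen. Alternatives were other size factors, DESeq2, low-count filters, no fold limit, fits of only the 6 libraries compared, a replicate block, omission of single libraries, no TMM factor and rank correlation. One gene of the acinar list is counted but not reported here.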

Additional observations from a re-analysis of the deposited data

How the results depend on the processing

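The number of enzymes called higher in Combo vs Vehicle was 9 under each alternative that could be fitted to them, which the choice of the genes by these counts fixed and which shows nothing of stability. A minimum of 10 counts in every library left none of them. Of the other acinar genes only *Cela1* passed this minimum. Calls of it were 0, 0, 0 and 1 in Vehicle vs WT, GLP-1R agonist, anti-IL-17A and Combo vs Vehicle. Counts of called enzymes in the other comparisons rested on few reads. DESeq2 called 2 for the GLP-1R agonist and 1 for anti-IL-17A (main 1 and 2), and the fit of only the 6 libraries compared called 1 for anti-IL-17A and 5 other acinar genes for the GLP-1R agonist (main 8). Leaving out each library gave 0 to 1 called enzymes in Vehicle vs WT, 1 to 3 for the GLP-1R agonist and 1 to 2 for anti-IL-17A. The extremes came without Vehicle library 1 or 2 in Vehicle vs WT (1), without Vehicle library 2 (3) or 3 (2) for the GLP-1R agonist, and without Vehicle library 1 or anti-IL-17A library 1 or 3 (1) for anti-IL-17A. *Ctrb1* in anti-IL-17A vs Vehicle ranged from -4.09 to 2.34 when each library was left out, reversing to 2.34 without Vehicle library 1. *Prss2* in BM, tested under alternatives added after the values were seen, kept its direction in all. Besides the libraries named above, Combo vs Vehicle fell below 0.05 in the fit of only 6 libraries (-0.75, adjusted p = 0.0469), inside the fold limit. The mean summed CPM in Combo was 1392 without the TMM factor and 1269 with it. The cause of these changes was not tested.

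Replicate numbers did not pair the ATM libraries, since the 30 correlations of deviations between libraries with the same number lay between -0.04 and 0.03. With the replicate number as a block, 0, 1, 2 and 9 enzymes and 8, 7, 7 and 24 other acinar genes were called, so that the counts of called enzymes were the same as without it. A level of 0 to 3 counts per library cannot be told from 0 at this depth.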
